A study of Mus musculus with 30 samples.

Results

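The subcortical maternal complex genes Khdc3, Nlrp5, Ooep, Tle6, Padi6 and Zbed3 were described in single mouse blastocysts. Each gene was read from the transcript cluster that carried its symbol alone and had the highest mean over all 30 arrays, and each of the 6 genes had 1 such cluster. They are 6 of the 30142 genes on the array with at least 1 cluster that carried a single symbol. Of these genes, 18090 passed the filter on low signals, which kept the upper 60% by mean signal. Khdc3, Nlrp5, Ooep, Tle6 and Zbed3 passed it, and Padi6, with a mean signal of 4.59 log2 units, did not.

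The study compared blastocysts from B6C3F1 x CD1 matings, 1 per array, in 3 groups of 10. GM501 twins were blastocysts grown from 1 blastomere of a 2-cell embryo in GM501, and SAGE twins grew from its sister blastomere in SAGE 1-Step, so that each number from 1 to 10 named a pair of monozygotic twins. Controls were undivided embryos grown singly in KSOM(aa). All embryos, twins and controls, came from oviducts of hormone-stimulated females, reached the 2-cell stage in KSOM(aa), and went into lysis at 4 days post coitum, when culture had lasted 96 h. Per the labels a twin blastocyst had about 40 to 50 cells and a control about 80. Controls thus differed from twins in later medium, in bisection and in cell number, and the parts of these 3 cannot be told apart here. RNA of a whole blastocyst was measured, so fewer cells of a type and less RNA per cell cannot be told apart either.

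The subcortical maternal complex is a protein assembly that the mouse oocyte stores beneath its membrane and that persists in the outer cortex of the cleaving embryo. NLRP5 (MATER), OOEP (FLOPED) and TLE6 form its core, KHDC3 (FILIA) binds to that core, and PADI6 and ZBED3 are associated members. In mice the complex is known for the cytoplasmic lattices of the egg, for the position and symmetry of the cleavage spindle and for passage beyond the first cleavages. Its transcripts are made in the growing oocyte, and most maternal messenger RNA is lost around the 2-cell stage.

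Khdc3 lies on chromosome 9 at 73101381 to 73106631 (GRCm38) and Ooep on the same chromosome at 78376903 to 78378588. Nlrp5 lies on chromosome 7 at 23385889 to 23441923, Tle6 on chromosome 10 at 81590904 to 81601185, Padi6 on chromosome 4 at 140727355 to 140742643 and Zbed3 on chromosome 13 at 95323605 to 95337842. The promoters of Khdc3, the member that differed most between twins and controls, and of Ooep, a core member from the same chromosome, are printed below. Each is the 250 bases before the start in RefSeq on GRCm38.p6. E-boxes, CANNTG on either strand and the motif of factors such as the oocyte regulator FIGLA, are in capitals.
Khdc3, chr9:73102148-73102397, plus strand: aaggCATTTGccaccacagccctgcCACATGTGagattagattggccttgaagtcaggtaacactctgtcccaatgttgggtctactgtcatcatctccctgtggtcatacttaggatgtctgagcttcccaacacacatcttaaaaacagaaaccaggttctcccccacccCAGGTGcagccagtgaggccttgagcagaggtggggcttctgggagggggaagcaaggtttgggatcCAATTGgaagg
Ooep, chr9:78378589-78378838, minus strand: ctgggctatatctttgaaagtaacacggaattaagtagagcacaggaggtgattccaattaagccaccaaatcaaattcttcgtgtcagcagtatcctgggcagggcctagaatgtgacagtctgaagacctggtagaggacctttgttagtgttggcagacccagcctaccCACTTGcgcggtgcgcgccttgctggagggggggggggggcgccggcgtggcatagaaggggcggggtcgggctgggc
The Khdc3 window held 5 E-boxes, of which a pair overlapped in 1 run of capitals, and the Ooep window held 1. Of 32851 RefSeq promoter windows of the same length, 66.2% held an E-box, with a median of 1. CCAAT, searched on both strands, occurred 4 times before Khdc3, where 2 of the matches overlapped an E-box, and 1 time before Ooep, and 33.8% of windows held it. TAATTG, the element of the oocyte factor NOBOX, occurred 1 time before Ooep, where it overlapped the CCAAT match, and in 7.17% of windows, and was not among the letters of the Khdc3 window. The Khdc3 window lies within the interval that RefSeq gives for the gene. These are matches of letters in a window and were not tested as sites.

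Signals were RMA values on a log2 scale, so levels of different genes are not set against each other, and differences below are between groups for the same gene. The median signal of a GM501 array was 4.88 ± 0.24 and that of a SAGE array 4.89 ± 0.22, while control arrays had 4.64 ± 0.029 (SD, n = 10 each). It was 4.81 to 5.28 in the 12 twins of pairs 1 to 6, and 4.57 to 4.67 in those of pairs 7 to 10 apart from the SAGE twin of pair 8 at 5.12, against 4.59 to 4.69 in controls. No label names a batch, so values of pairs 7 to 10, which lay with the controls, are given beside those of all pairs. The median difference of all 18090 genes was 0.11 in either twin group minus controls. Lineage markers of the blastocyst passed the filter in 9 of 9 trophectoderm, 10 of 10 epiblast and 6 of 8 primitive endoderm genes. Of 10 markers of cumulus, oviduct and blood cells, 4 passed it. Over all pairs 0 of these 4 were called against controls, beside 13.8% and 16.1% of all genes in GM501 and SAGE twins (limma). In pairs 7 to 10 also 0 were called, beside 1.32% and 0.813% of all genes. In pairs 1 to 6, 2 were called higher in either twin group, where 6926 and 7045 of all 18090 genes were called higher (limma). The labels call each blastocyst a separate sample without naming matings or culture days, so the p-values rest on the spread among these embryos, which may be technical.

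Khdc3 was lower in every twin than in any control, in both media, by about 3-fold, while none of its partners was called lower in either twin group. Nlrp5, Tle6 and Padi6 had low signals, with control means of 5.99, 5.74 and 4.455 beside a filter cut of 4.80. A fall had little room to show in them. In GM501 twins the signal of Khdc3 had a lowest value of 11.51, a median of 12.39 and a highest of 13.15. In SAGE twins these were 11.46, 12.39 and 12.74, and in controls 13.22, 13.83 and 14.72. The highest twin, the GM501 twin of pair 10, lay 0.07 below the lowest control, so the groups did not overlap.

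GM501 twins averaged 12.23 ± 0.59 and controls 13.91 ± 0.44 (SD, n = 10 each), and Khdc3 fell by 1.68 ± 0.22 on the log2 scale (SE; limma adjusted p = 0.000334), which is 3.20-fold lower. It ranked 11 by p among the 18090 genes, of which 13.8% were called at an adjusted p under 0.05 and 6.97% were called lower. SAGE twins averaged 12.19 ± 0.49, and Khdc3 fell by 1.73 ± 0.20, or 3.31-fold (limma adjusted p = 0.00044). It had the smallest p of all genes in that comparison, where 16.1% were called and 8.63% were called lower. Both comparisons share the 10 controls. With pair means, so that an embryo counted as 1, the difference was -1.70 ± 0.20 (limma adjusted p = 0.000184), and 25.6% of genes were called.

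Complete separation of this kind was rare on the array. All 20 twins lay below all 10 controls for 5 genes, 0.0276% of those tested, and above them for 2, or 0.0111%. Khdc3 was the second of the 5 by difference in means, after Pla2g15, a lysosomal phospholipase gene. The other 3 were Sh3bp1, Cmtm7 and Keap1, the last of which encodes the sensor that restrains NRF2. All 4 were chosen for naming once their values were known.

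The difference of Khdc3 was smaller in the pairs whose array medians lay with the controls and was called there too. In pairs 7 to 10 it was -1.20 ± 0.23 for GM501 twins, -1.32 ± 0.22 for SAGE twins and -1.26 ± 0.22 for pair means (SE; limma adjusted p = 0.0221, 0.0274 and 0.0206). In these pairs 1.32%, 0.813% and 0.73% of genes were called in the same 3 comparisons. In pairs 1 to 6 it was -2.00 ± 0.22, -1.99 ± 0.22 and -2.00 ± 0.20, where 59.4%, 58.8% and 64.2% of genes were called. The 8 twins of pairs 7 to 10 had Khdc3 signals from 12.34 to 13.15 and the 12 of pairs 1 to 6 from 11.46 to 12.62, so the sets overlapped.

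**Figure D1:**
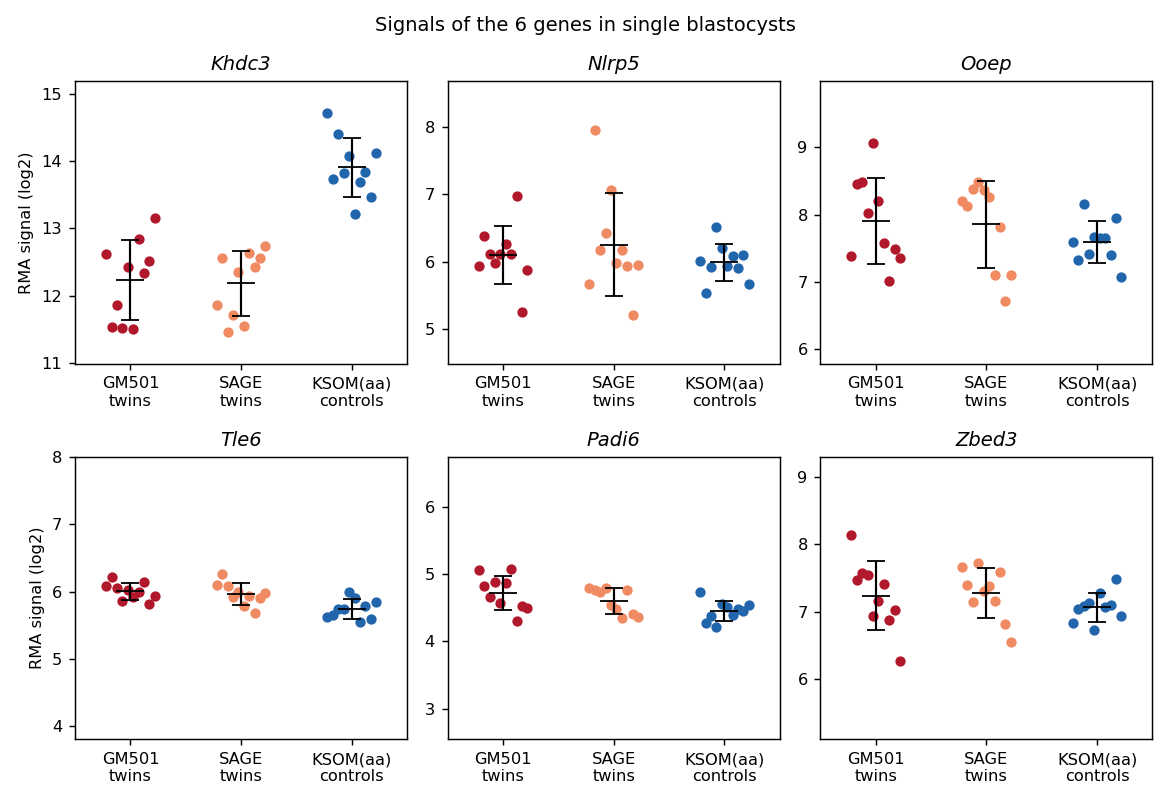
RMA signal (log2) of the 6 genes in single blastocysts, 1 point each, for GM501 twins, SAGE twins and KSOM(aa) controls, with the mean and SD in black (n = 10 each). Panels span the same range of log2 units. All twins lie below all controls for Khdc3, and the groups overlap for the other 5 genes.

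Among the core members, Nlrp5, an NLR-family protein needed in the mouse for development past the first cleavages, had its widest spread in SAGE twins. Its signal had a lowest value of 5.26, a median of 6.12 and a highest of 6.97 in GM501 twins. In SAGE twins these were 5.21, 6.08 and 7.96, and in controls 5.54, 5.98 and 6.52. The groups overlapped over most of their range, and the highest signals, 7.96 and 7.06, belonged to the SAGE twins of pairs 2 and 5. The difference from controls was 0.11 ± 0.16 in GM501 twins and 0.26 ± 0.25 in SAGE twins (SE, n = 10 each; limma adjusted p = 0.607 and 0.421). In pairs 7 to 10 these were 0.07 ± 0.24 and -0.17 ± 0.18.

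Ooep, the small RNA-binding-fold protein of the core, separated the pairs rather than the groups. Its signal had a lowest value of 7.01, a median of 7.80 and a highest of 9.06 in GM501 twins. In SAGE twins these were 6.71, 8.17 and 8.48, and in controls 7.07, 7.62 and 8.16. Of the 12 twins in pairs 1 to 6, 9 lay above all controls, while 0 of 8 did in pairs 7 to 10. The difference over all pairs was 0.32 ± 0.22 in GM501 twins and 0.27 ± 0.22 in SAGE twins, neither called (limma adjusted p = 0.278 and 0.354). With array weights, which count variable arrays less, both were called, at 0.55 and 0.52 (limma adjusted p = 0.0355 and 0.0246), in fits that called 7911 and 8876 of the 18090 genes. In pairs 1 to 6 Ooep rose by 0.68 ± 0.20 and 0.71 ± 0.14 (limma adjusted p = 0.00924 and 0.00034), in a set where most genes were called. In pairs 7 to 10 its differences were -0.23 ± 0.17 and -0.40 ± 0.20 (limma adjusted p = 0.579 and 0.337).

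Tle6, the Groucho-family member of the core, varied little within each group. Its signal had a lowest value of 5.81, a median of 6.01 and a highest of 6.22 in GM501 twins. In SAGE twins these were 5.68, 5.96 and 6.26, and in controls 5.55, 5.75 and 5.99. All 10 GM501 twins and 9 of 10 SAGE twins lay above the controls' median, and the ranges overlapped. Tle6 rose by 0.26 ± 0.08 in GM501 twins (SE; limma adjusted p = 0.036), while in SAGE twins the difference of 0.22 ± 0.09 was not called (limma adjusted p = 0.0712), though it was without the filter, with array weights and in pairs 1 to 6 (0.0429, 0.0219 and 0.0128). With pair means it rose by 0.24 ± 0.07 (limma adjusted p = 0.0276), beside 14.2% of genes called higher. Both calls were lost with other scales of the arrays. With each array centred on its own median, the differences were 0.02 for GM501 twins, -0.02 for SAGE twins and -0.0005 for pair means. The call in GM501 twins was also lost in 18 of 30 fits with arrays left out (limma adjusted p up to 0.112). These left out either 1 array or a GM501 twin together with the control of the same number. The call of pair means was lost without replicate 1, 2, 3 or 4, controls included (limma adjusted p from 0.0548 to 0.0885). The differences in pairs 7 to 10 were 0.23 ± 0.10 and 0.13 ± 0.10 in GM501 and SAGE twins, also not called.

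Of the associated members, Zbed3, a zinc-finger protein that binds Axin, had a lowest signal of 6.26, a median of 7.28 and a highest of 8.14 in GM501 twins. In SAGE twins these were 6.55, 7.35 and 7.72, and in controls 6.73, 7.07 and 7.49. The controls lay within the range of the twins. The difference was 0.17 ± 0.17 in GM501 twins and 0.20 ± 0.14 in SAGE twins (SE; limma adjusted p = 0.46 and 0.266). Zbed3 rose in pairs 1 to 6 by 0.40 ± 0.15 and 0.37 ± 0.12 (limma adjusted p = 0.0324 and 0.012), where 59.4% and 58.8% of genes were called. Its differences in pairs 7 to 10 were -0.17 ± 0.17 and -0.04 ± 0.17. With each array centred on its own median, the differences over all pairs were -0.068 in GM501 twins and -0.041 in SAGE twins.

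Padi6, a peptidylarginine deiminase relative needed for the lattices of the mouse egg, did not pass the filter on low signals and was tested without it. Its signal had a lowest value of 4.30, a median of 4.74 and a highest of 5.07 in GM501 twins. In SAGE twins these were 4.35, 4.64 and 4.80, and in controls 4.22, 4.47 and 4.73. The groups overlapped, with 10 of 20 twins above all controls and none below them. In fits without the filter its difference was 0.27 ± 0.10 in GM501 twins and 0.15 ± 0.08 in SAGE twins (SE; limma adjusted p = 0.0527 and 0.156), where 19.1% and 26.2% of genes were called. With pair means it rose by 0.21 ± 0.08 (limma adjusted p = 0.0364), in a fit that called 41.2% of genes, and the difference was 0.08 ± 0.09 in pairs 7 to 10.

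Of the 5 members kept by the filter, 1 was called lower and 1 higher in GM501 twins than in controls, and 1 was called lower and 0 higher in SAGE twins. The background in those fits was 13.8% and 16.1% of genes. The median difference of the 5 was 0.17 in GM501 twins and 0.22 in SAGE twins, beside 0.11 over all genes.

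**Figure D2:**
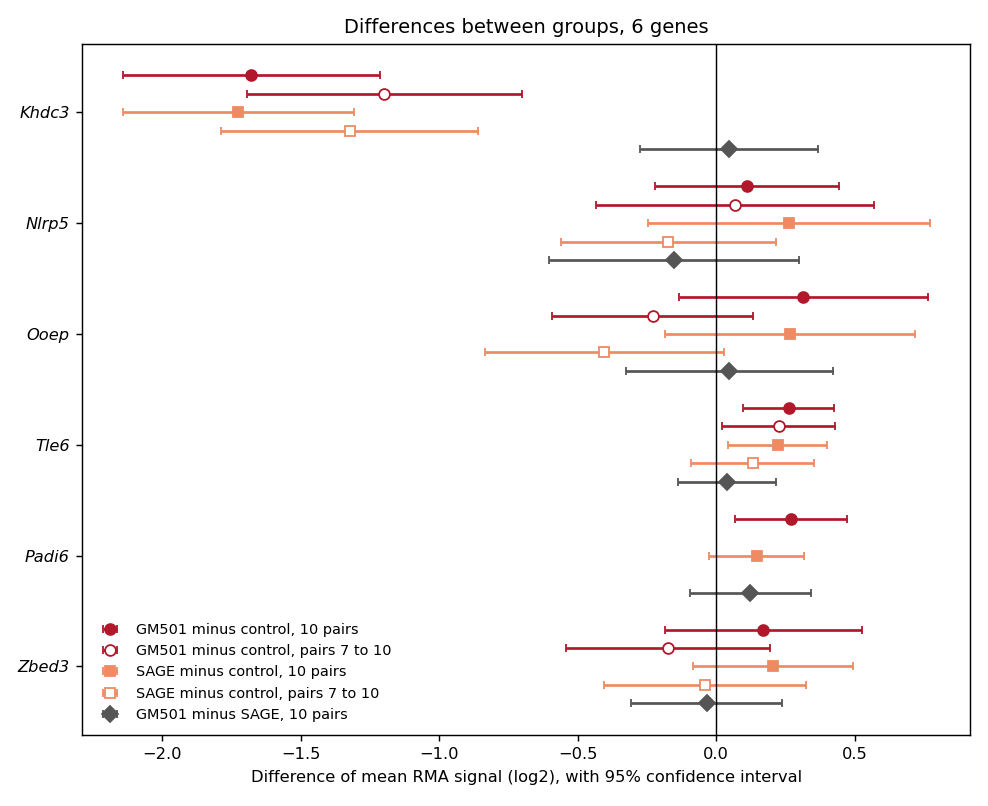
Difference of mean RMA signal (log2) with its 95% confidence interval for each gene, from the limma fits. Filled symbols are all 10 pairs and open symbols pairs 7 to 10 against the same 10 controls, with circles for GM501 minus control, squares for SAGE minus control and diamonds for GM501 minus SAGE; Padi6 is shown for all pairs alone. Intervals of Khdc3 against controls end below -0.69, and those between the media include 0 for all 6 genes.

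Khdc3 was also set against each partner on the same array, as the difference of their log2 signals. Only a shift that moves both genes equally cancels in this difference. Over SAGE arrays, r with the array median was 0.92 for Padi6 and 0.81 for Zbed3, but -0.37, not called, for Khdc3. The difference may thus still carry the scale of the array. Twins minus controls, Khdc3 minus partner was -1.89 ± 0.30 for Nlrp5, -1.99 ± 0.35 for Ooep, -1.94 ± 0.22 for Tle6, -1.91 ± 0.23 for Padi6 and -1.89 ± 0.32 for Zbed3 (SE, 10 pair means and 10 controls). Permutation tests with 100000 resamples, two-sided, gave p = 2e-05 for Nlrp5, 8e-05 for Ooep and Zbed3, and 1e-05, the smallest they can give, for Tle6 and Padi6. Adjusted over the 5 comparisons these were 3.33e-05, 8e-05 and 2.5e-05. The differences were smaller in pairs 7 to 10, at -1.21 ± 0.34 for Nlrp5, -0.94 ± 0.23 for Ooep, -1.44 ± 0.18 for Tle6, -1.34 ± 0.19 for Padi6 and -1.15 ± 0.36 for Zbed3 (SE, 4 pair means and 10 controls). In pairs 1 to 6 they ran from -2.28 ± 0.19 for Tle6 to -2.69 ± 0.25 for Ooep (SE, 6 pair means and 10 controls). Exact permutation tests, two-sided and adjusted over these 10 comparisons, gave p from 0.0005 to 0.00999. All 20 twins lay below all controls for Khdc3 minus Tle6 and minus Padi6. For Nlrp5, Zbed3 and Ooep, 19, 18 and 16 of 20 twins did. The 5 comparisons share the Khdc3 values and are not independent of each other.

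**Figure D3:**
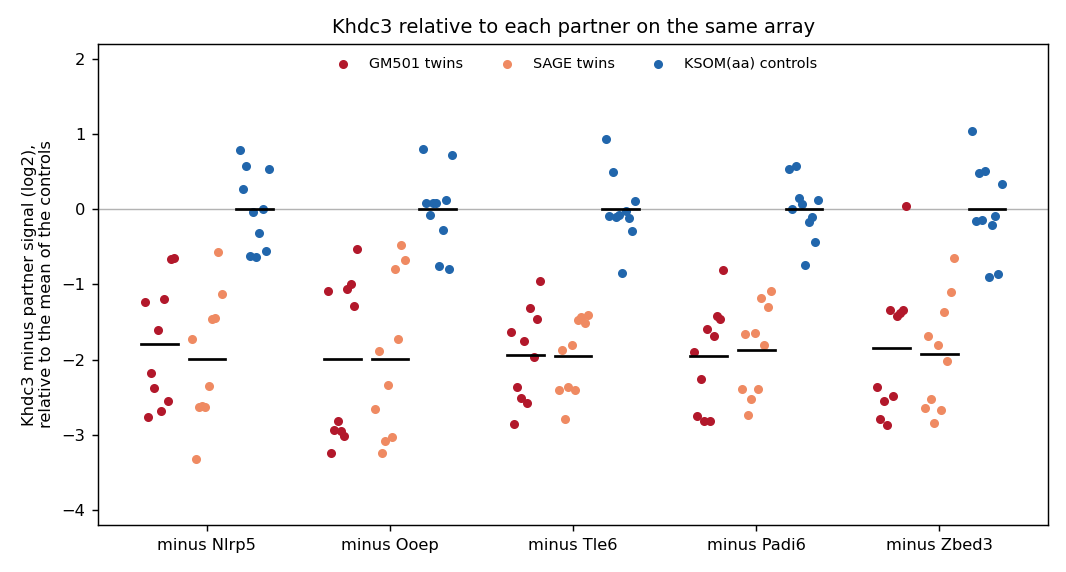
Khdc3 signal minus the signal of each partner on the same array (log2), relative to the mean of the controls, 1 point per blastocyst, with group means as black bars (n = 10 each). Twin means lie near -2 for all 5 partners, with 16 to 20 of 20 twins below the lowest control, while in pairs 7 to 10 alone they lie between -1.44 and -0.94.

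Between the media, co-twins shared the low level of Khdc3. The GM501 minus SAGE difference was 0.05 ± 0.15 (SE, 10 pairs), with a 95% confidence interval from -0.27 to 0.37, and 5 of 10 pairs were higher in GM501. Nlrp5 differed by -0.15 ± 0.21 (interval -0.60 to 0.30), Ooep by 0.05 ± 0.17 (-0.33 to 0.42), Tle6 by 0.04 ± 0.08 (-0.14 to 0.22) and Zbed3 by -0.03 ± 0.13 (-0.31 to 0.24). For Padi6, without the filter, the difference was 0.12 ± 0.10 (-0.09 to 0.34), positive in 8 of 10 pairs. The limma adjusted p was 1 for all 6, and 0.0% of genes were called, with 695 at an unadjusted p under 0.05. Within either set of pairs 0.0% of genes were called, and an interaction of medium with set called no member (limma).

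Co-twins lay closer together than twins of different pairs, by median distance, in all 6 members. Co-twins always fell in the same set of pairs, and the sets differed in level. Pair means averaged 11.91 in pairs 1 to 6 and 12.65 in pairs 7 to 10 for Khdc3, and 8.29 and 7.27 for Ooep. These distances do not separate likeness of co-twins from the difference between sets. For Khdc3 the median distance between co-twins was 0.205, and between GM501 and SAGE twins of different pairs it was 0.59. The largest distance, in pair 2, had the GM501 twin at 11.53 and the SAGE twin at 12.56. For Ooep these medians were 0.465 and 0.695, and pair 8 was farthest apart, at 7.01 in GM501 and 7.82 in SAGE. For Nlrp5 they were 0.275 and 0.44, with pair 2 at 6.38 in GM501 and 7.96 in SAGE. The co-twin and other medians were 0.055 and 0.15 for Tle6, 0.12 and 0.25 for Padi6, and 0.275 and 0.41 for Zbed3.

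The embryo of origin was called for Khdc3 (F = 4.37, limma adjusted p = 0.0428), Ooep (F = 4.47, adjusted p = 0.0403) and Zbed3 (F = 4.11, adjusted p = 0.0493), in a test that called 26.4% of genes. It was not called for Nlrp5 (F = 2.42), Tle6 (F = 0.90) or, without the filter, Padi6 (F = 1.07), with limma adjusted p of 0.155, 0.618 and 0.513. All 3 calls lay near the threshold, and the test does not separate the embryo of origin from the set of pairs. Khdc3 kept its call without pair 1, 2 or 8 and lost it without any other (F from 3.40 to 8.86, limma adjusted p from 0.01 to 0.108). Ooep kept its call without pair 1, 4 or 8, and Zbed3 without pair 3 or 8, with F down to 1.97 without pair 10. With arrays centred on their medians Khdc3 had F = 9.98 (limma adjusted p = 0.0067), while Ooep and Zbed3 had F = 2.97 and 2.35 and were not called (limma adjusted p = 0.121 and 0.189). Array medians averaged 5.01 over pair means in pairs 1 to 6 and 4.69 in pairs 7 to 10. Khdc3 was lower in pairs 1 to 6, so centring widens its gap between the sets. After quantile normalization Khdc3 had F = 3.89 and was not called (limma adjusted p = 0.0654).

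**Figure D4:**
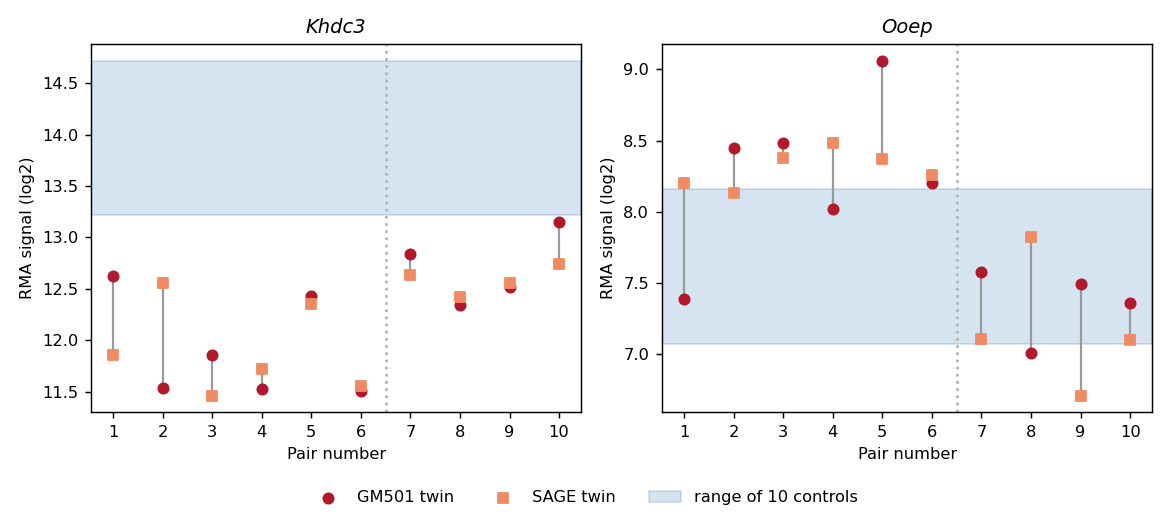
RMA signal (log2) of Khdc3 and Ooep in the GM501 twin (circle) and SAGE twin (square) of each pair, joined by a line, with the range of the 10 controls shaded and a dotted line between pairs 6 and 7. All twins lie below the shaded range for Khdc3, whereas for Ooep 9 twins of pairs 1 to 6 lie above it and the twins of pairs 7 to 10 lie in it or below.

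The spread of single blastocysts differed by gene. The SD of Khdc3 in controls, 0.44, exceeded that of 82.7% of genes, whose median SD was 0.25. In GM501 and SAGE twins its SD of 0.59 and 0.49 exceeded those of 67.5% and 51.6% of genes, with medians of 0.46 and 0.48. Tle6 had a smaller SD than nearly all genes in twins, with 1.19% of genes below it in GM501 twins and 2.77% in SAGE twins.

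Across single blastocysts no partner followed Khdc3 beyond the tests. Over 10 controls, Pearson's r with Khdc3 was -0.71 for Zbed3 (Spearman's rho -0.67) and between -0.04 and 0.43 for the others. Over 10 SAGE twins r was -0.73 for Ooep (rho -0.84), and over 10 GM501 twins r ran from -0.52 for Ooep to -0.13 for Tle6. None of the 15 relations passed a permutation test after Benjamini-Hochberg adjustment, with the smallest adjusted p at 0.168 for r and 0.0582 for rho. Twin groups span both sets of pairs: within pairs 1 to 6, r of Khdc3 and Ooep was -0.12 in GM501 and -0.45 in SAGE twins (exact permutation adjusted p = 0.986 and 0.903), and pairs 7 to 10 were too few. Without the 2 blastocysts farthest from the median of Khdc3, r was -0.60 for Zbed3 in controls and -0.71 for Ooep in SAGE twins.

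Relations with the array median were tested likewise, 18 in all. Zbed3 followed it in GM501 twins (r = 0.83, rho = 0.84, permutation adjusted p = 0.021 and 0.043) and SAGE twins (r = 0.81, rho = 0.81, adjusted p = 0.025 and 0.043), and Padi6 in SAGE twins (r = 0.92, rho = 0.82, adjusted p = 0.009 and 0.043). Without the 2 arrays farthest from the middle r was 0.68, 0.85 and 0.95. Within pairs 1 to 6 these r were 0.98, 0.35 and 0.79 (exact permutation adjusted p = 0.0333, 0.588 and 0.26). For Khdc3 r was -0.55 over GM501 arrays, -0.37 over SAGE arrays and 0.14 over control arrays, none called, and without the 2 farthest arrays it was -0.84, -0.56 and -0.062. Within pairs 1 to 6 it was 0.28 in GM501 and 0.37 in SAGE twins (exact permutation adjusted p = 0.638 and 0.588).

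Genes whose signals ran most like each member over the 30 arrays, with group means removed, are given as a description. For Khdc3 they were Slc37a3 (r = 0.74), Erf, an ETS-family repressor (0.73), Kif13b, a kinesin (0.73), Zfand2b (0.73) and Kdm5c, a histone demethylase (0.71). Of these 5, Erf, Kif13b and Kdm5c fell in twins by pair means, with differences of -1.59 ± 0.45, -0.59 ± 0.21 and -0.85 ± 0.19 (limma adjusted p = 0.0206, 0.0433 and 0.00817), against a background of 11.4% called lower. Slc37a3 and Zfand2b had differences of 0.08 ± 0.24 and -0.16 ± 0.21. The members themselves were not among each other's likest genes, and r between Khdc3 and its partners over the same arrays ran from -0.49 with Ooep to -0.03 with Nlrp5.

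For Ooep the likest were Uxt (0.87), Rpl27, a ribosomal protein gene (0.86), and Tpmt, thiopurine methyltransferase (0.86). For Nlrp5 they were Lmo2 (0.71), Ddit4l (0.71) and Pde8a, a cAMP phosphodiesterase (0.70). For Tle6 r reached 0.65 with H2-Eb1, then 0.58 with Tmem184c and 0.57 with Zfp442. Both Padi6 and Zbed3 had an olfactory receptor gene among the likest: Cyren (0.78), Olfr978 (0.77) and Mlf1 (0.77) for Padi6, and Fgf1 (0.85), Olfr912 (0.84) and Klk12 (0.83) for Zbed3. Some of these r came from the twin arrays: over the 10 controls alone r was 0.12 for Fgf1, -0.40 for Olfr912 and -0.048 for Klk12 with Zbed3, and 0.18 for Rpl27 with Ooep and 0.065 for Pde8a with Nlrp5. The points share the array scale.

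Within 100 kb of Khdc3, Rab27a, a vesicle GTPase, fell by 0.31 ± 0.10 and Pigbos1 rose by 0.67 ± 0.20 in pair means minus controls (SE; limma adjusted p = 0.0369 and 0.0263). Pigb, Rsl24d1 and Ccpg1 had differences of -0.42 ± 0.19, -0.30 ± 0.15 and 0.20 ± 0.14 and were not called, as was the pseudogene Gm5745 at 0.96 ± 0.40. Near Ooep, Dppa5a, a pluripotency gene with a related KH domain, had a difference of -0.09 ± 0.06 and Ddx43 of 0.33 ± 0.31, neither called. Omt2b, an oocyte transcript of this region, rose by 0.52 ± 0.15 (limma adjusted p = 0.0217). Cgas, below the filter with a control mean of 4.045, rose by 0.30 ± 0.07 in the fit without it (limma adjusted p = 0.00994). That fit called 41.2% of genes, and the fit with the filter, which called Rab27a, Pigbos1 and Omt2b, called 25.6%. Array medians averaged 4.88 over pair means and 4.64 in controls. The part of this shift in the rises of Pigbos1, Omt2b and Cgas was not tested. Omt2a, Mto1, Eef1a1, Gsta2, Gm10639 and Gm8093 were not called, with differences from -0.30 to 0.30.

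The relatives of the members were read from lists. Of 12 oocyte NLRP genes, the family of Nlrp5, 5 passed the filter, of which 3 were called higher and 0 lower in GM501 twins, and 2 higher and 1 lower in SAGE twins, beside 6.81% and 7.5% of all genes called higher. Nlrp4e rose by 1.01 ± 0.23 and 0.76 ± 0.24 in GM501 and SAGE twins, and Nlrp4c by 0.92 ± 0.27 and 1.13 ± 0.33 (SE; limma adjusted p from 0.0129 to 0.0361). Nlrp9b rose in GM501 twins by 1.21 ± 0.29 (adjusted p = 0.0163), and Nlrp4f fell in SAGE twins by 0.67 ± 0.22 (adjusted p = 0.0442) with a difference of -0.02 ± 0.32 in GM501 twins (limma). In pairs 7 to 10, 0 of the 5 were called, beside 1.32% and 0.813% of all genes in GM501 and SAGE twins. Their median there was 0.67 in GM501 twins and 0.15 in SAGE twins. Nlrp2 and Nlrp14, below the filter, had differences of 0.29 ± 0.15 and 0.19 ± 0.16 in GM501 twins and 0.26 ± 0.13 and 0.47 ± 0.26 in SAGE twins. These genes are near-identical copies in part, and a cluster's probes may read several of them.

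Of the KHDC1 and DPPA5 relatives of Khdc3, 4 of 4 passed the filter, with medians of 0.08 in GM501 twins and -0.03 in SAGE twins. In either comparison 0 of the 4 were called, beside 13.8% and 16.1% of all genes (limma), and so few genes say little. These medians join sets of pairs that went opposite ways. In pairs 7 to 10 all 4 lay below controls, with medians of -0.49 in GM501 and -0.37 in SAGE twins. There 0 were called, beside 1.32% and 0.813% of all genes. The medians in pairs 1 to 6 were 0.59 and 0.28, with 1 called higher in GM501 twins and 0 in SAGE twins. Of 13 paralogs of the other members, 6 passed the filter. Tle3, a Groucho corepressor, fell by 0.99 ± 0.18 in GM501 twins and 1.11 ± 0.23 in SAGE twins (SE, limma adjusted p = 0.0045 and 0.00856). It was not called in pairs 7 to 10. Over all pairs 0 of the 6 were called higher in GM501 or SAGE twins, beside 6.81% and 7.5% of all genes.

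Other genes of the oocyte's store were read too. Of 20 oocyte transcripts, 13 passed the filter, with 1 higher and 0 lower in GM501 twins, and 2 higher and 0 lower in SAGE twins, beside 6.81% and 7.5% of all genes called higher and 6.97% and 8.63% called lower. Gdf9, an oocyte growth factor, rose by 0.43 ± 0.10 and 0.56 ± 0.11 in GM501 and SAGE twins, and Pabpc1l, the embryonic poly(A)-binding protein, by 0.27 ± 0.09 in SAGE twins (SE; limma adjusted p = 0.0144, 0.00711 and 0.0475). Their medians were 0.20 and 0.25 beside 0.11 over all genes, and 0 were called in pairs 7 to 10, where 1.32% and 0.813% of all genes were called.

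Of 17 other maternal-effect genes, 15 passed the filter, with 1 higher and 1 lower in GM501 twins and 0 higher and 3 lower in SAGE twins, against the same shares of all genes, 6.81% higher and 6.97% lower in GM501 twins and 7.5% higher and 8.63% lower in SAGE twins. Dppa3 (Stella), which guards maternal methylation, rose by 1.16 ± 0.27 in GM501 twins (SE; limma adjusted p = 0.015), beside 0.68 ± 0.33 in SAGE twins, not called. Trim28, the KAP1 corepressor, fell, at -1.60 ± 0.51 in GM501 twins and -1.80 ± 0.41 in SAGE twins (adjusted p = 0.0432 and 0.0127, limma). Smarca4 and Uhrf1 fell in SAGE twins, by 0.71 ± 0.20 and 0.88 ± 0.28. Zar1 and Npm2 were not called, at 0.28 ± 0.21 and -0.04 ± 0.10 in GM501 twins and 0.12 ± 0.18 and 0.07 ± 0.12 in SAGE twins. Of the 15, 1 was called in pairs 7 to 10, higher in GM501 twins, beside 1.32% and 0.813% of all genes called in GM501 and SAGE twins. The lowest difference of the 15 in those pairs was -0.39 in GM501 twins and -0.34 in SAGE twins.

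**Figure D5:**
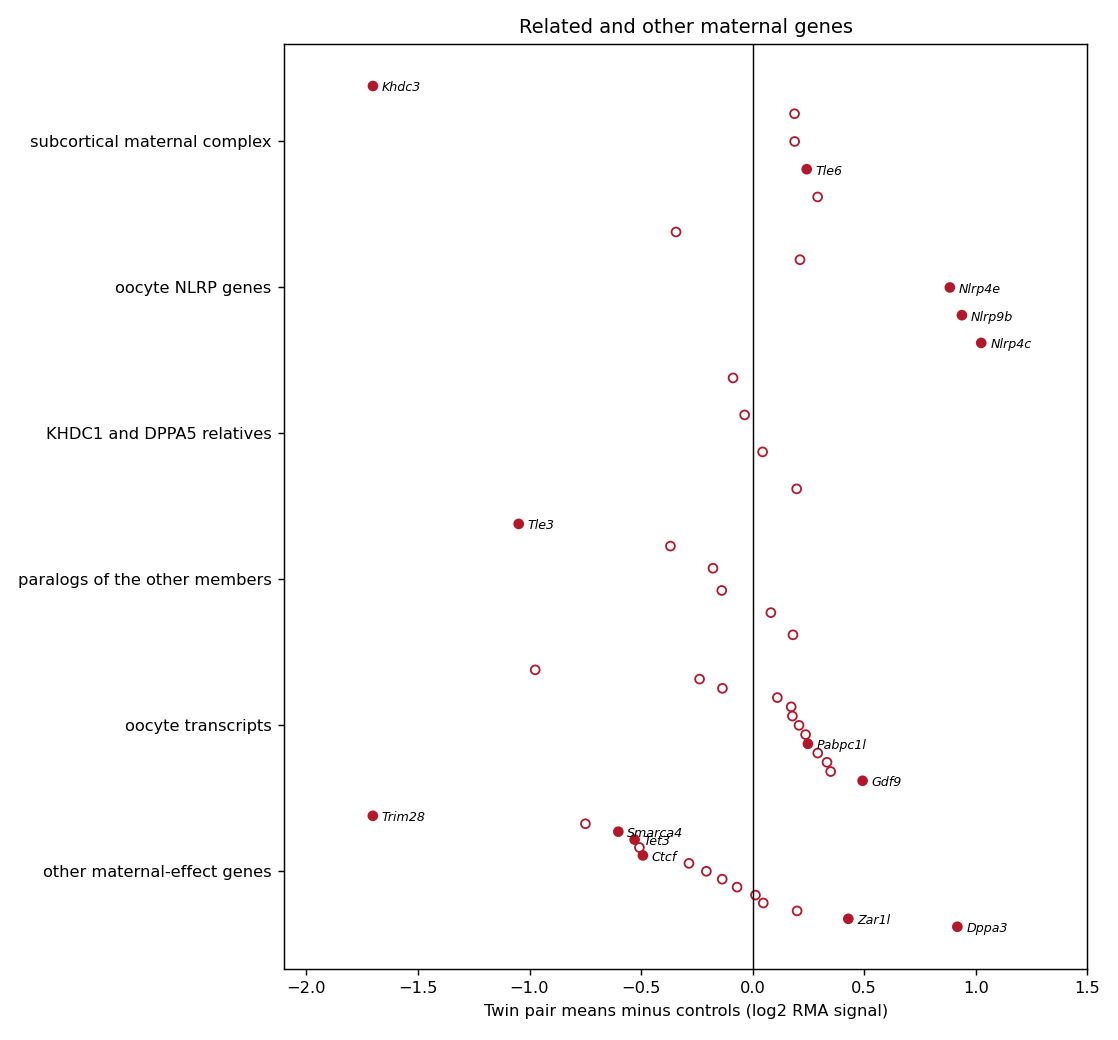
Difference of twin pair means from controls (log2 RMA signal) for genes kept by the filter in 6 lists, 1 point per gene, filled and named where the limma adjusted p was under 0.05. Khdc3 lies at -1.70 among its complex and Trim28 at -1.70 among other maternal-effect genes, and the other members of the complex lie between 0.19 and 0.29. All 10 pairs are shown. In pairs 7 to 10 alone Khdc3 was at -1.26, and the lowest of the other maternal-effect genes was at -0.27.

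Pathways in which the complex is known to act were read as well. Of 13 kept genes of cofilin and cortical actin, which link the complex to the spindle, 4 were called lower and 0 higher in each twin group, beside 6.97% and 8.63% of all genes called lower. Wdr1 fell by 0.87 ± 0.23 and 0.86 ± 0.28, Cap1 by 1.14 ± 0.33 and 1.12 ± 0.35, and Rhoa by 0.68 ± 0.22 and 0.76 ± 0.20 in GM501 and SAGE twins (SE; limma adjusted p from 0.0207 to 0.0445). Limk2 fell in GM501 twins by 0.70 ± 0.22 and Ezr in SAGE twins by 0.87 ± 0.25. Cfl1, cofilin itself, was not called, at -0.04 ± 0.16 and -0.12 ± 0.17. In pairs 7 to 10, 0 of the 13 were called, beside 1.32% and 0.813% of all genes in GM501 and SAGE twins. Of 9 kept DNA damage response genes, in which KHDC3 acts in mouse embryonic stem cells, 0 were called over all pairs in GM501 or SAGE twins (limma), with medians of -0.40 and -0.24 beside 0.11 over all genes. With pair means 2 of the 9 were called lower, beside 11.4% of all genes, and in pairs 1 to 6 GM501 and SAGE twins had 6 and 3 lower, where most genes were called. Of 10 kept Axin and Wnt genes, 1 was called lower in GM501 twins and 3 in SAGE twins, and 0 higher. Csnk1a1, the kinase of the Axin complex, fell in both, by 0.72 ± 0.16 and 0.54 ± 0.12, and Axin1 and Dvl3 fell in SAGE twins by 0.60 ± 0.18 and 0.53 ± 0.18. Of the 10, 0 were called in pairs 7 to 10, beside the same shares of all genes there, 1.32% and 0.813%.

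Markers of the blastocyst's lineages moved with the groups too. In each twin group 7 of 9 trophectoderm markers were called lower and 0 higher, beside 6.97% and 8.63% of all genes called lower and 6.81% and 7.5% called higher in GM501 and SAGE twins. Cdx2 fell by 0.47 ± 0.15 in GM501 twins and 0.71 ± 0.14 in SAGE twins (SE; limma adjusted p = 0.044 and 0.00829). Of 10 epiblast markers, 1 was called lower and 1 higher in GM501 twins, and 6 lower and 0 higher in SAGE twins. Pou5f1 differed by -0.69 ± 0.29 and Nanog by -1.04 ± 0.51 in GM501 twins, not called, and they fell in SAGE twins by 1.14 ± 0.25 and 1.54 ± 0.35. Of 6 kept primitive endoderm markers, 2 were called lower and 0 higher in each twin group. Gata6 differed by -0.10 ± 0.21 and -0.42 ± 0.20. In pairs 7 to 10, 1 marker of the 3 lists was called in GM501 twins and 0 in SAGE twins, beside 1.32% and 0.813% of all genes. In GM501 and SAGE twins of these pairs the trophectoderm medians were -0.30 and -0.23, and the epiblast medians 0.08 and -0.72. Primitive endoderm medians were -0.15 and -0.33, beside -0.013 and -0.029 over all genes. The part of the lineage markers in the result of Khdc3 was not tested.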

How the data were processed

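RNA of 30 single blastocysts was measured, 1 to an array. The authors deposited log2 signals for 65956 transcript clusters, made by the authors with RMA in Affymetrix Expression Console on mm10, per the submitters' processing notes; versions are not given in the sources used here. The log base was taken from RMA's own scale and the values' range of 2.2 to 19.3. RMA signals carry no count of molecules, and the number of arrays limits the precision. Biotinylated cDNA was made with the WT Pico kit, per the labels' protocols.

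Clusters with 1 symbol, 30604 in all, were matched to GRCm38.p6, which updated 827 symbols; for a gene with several, the highest mean was used. The upper 60% of 30142 genes by mean, at least 4.80, were kept. No 2 arrays were alike, with r from 0.928 to 0.985 across clusters. limma 3.58.1 in R 4.3.3 tested all 18090 kept genes (two-sided, Benjamini-Hochberg over all of them, a gene was called where its adjusted p lay under 0.05). GM501 and SAGE twins were set against each other with the pair as a block, since the labels say that co-twins share 1 embryo; the controls' numbers name no pair. Each twin group, and the pair means, were compared with controls, and the embryo of origin by limma's F test. Padi6 was tested in fits without the filter. On simulated data of 18090 genes, changes of 1 log2 unit were recovered at 93% and of 0.5 at 58% in GM501 minus control, and at 86% and 41% in GM501 minus SAGE. The simulated spread was taken from the controls, whose median SD was 0.25, beside 0.46 in GM501 and 0.48 in SAGE twins. These rates are thus optimistic for the real twins.

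The 6 genes, the lists and the sets of pairs were chosen with earlier results of these data known. Named genes were the members, the 5 genes most like Khdc3 and 3 most like each partner by group-centred r among protein-coding genes kept, up to 4 called genes of each list with the smallest p in each comparison with controls, neighbours within 100 kb of Khdc3 or Ooep, and Nlrp2, Nlrp4f, Nlrp14, Dppa5a, Dppa3, Zar1, Npm2, Cfl1, Cdx2, Pou5f1, Nanog and Gata6 whatever their p. Alternatives were the filter, centring of arrays, trend and robust fitting, array weights, all clusters of a gene, the block, subsets of pairs and leaving out replicates. Leaving out single arrays, quantile normalization, the interaction, Padi6 within subsets of pairs and, within sets of pairs, correlations and Khdc3 minus each partner were added after seeing the data.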

Additional observations from a re-analysis of the deposited data

How the results depend on the processing

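The lower signal of Khdc3 in twins kept its direction and call in 96 of 96 alternatives of the 3 comparisons with controls, from -2.00 to -1.20 (limma adjusted p from 5.99e-07 to 0.0274). Results named next moved more, and for these the cause was not tested. In GM501 twins against controls, 2493 genes were called, 5757 without the filter, 7911 with array weights, 239 in pairs 7 to 10, 10742 in pairs 1 to 6 and 1373 with the replicate block. In SAGE twins against controls these counts were 2918, 7911, 8876, 147, 10642 and 1916. With pair means they were 4628, then 12409, 10798, 132 and 11605, with no block. The controls' numbers name no pair, so this block paired controls by number alone. With it Tle6 lost its call in GM501 twins (adjusted p = 0.0858) and Khdc3 kept its call. With no replicate block between the media, 0 genes were called (limma), with 225 at an unadjusted p under 0.05. Leaving out replicates, the counts ran from 465 to 5271 in GM501 twins, from 659 to 6307 in SAGE twins, from 1292 to 6444 for pair means and from 3188 to 6349 for the embryo of origin.

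The split of calls moved with the scale of the arrays. It was 1232 higher and 1261 lower in GM501 twins, but 258 and 2285 with centred arrays and 509 and 1922 after quantile normalization. In SAGE twins it was 1356 higher and 1562 lower, but 260 and 3126 centred and 498 and 2258 after quantile normalization. For pair means it was 2562 and 2066, but 454 and 3802, and 826 and 2951.

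Of the members, 2 were called in GM501 twins, 1 with centring, quantile normalization, pairs 7 to 10 or the replicate block, 3 with array weights, 4 in pairs 1 to 6, and 1 to 2 leaving out replicates. In SAGE twins 1 was called, 2 without the filter, 3 with array weights, 4 in pairs 1 to 6, and 1 to 2 leaving out replicates. With pair means 2 were called, 1 with centring, quantile normalization or pairs 7 to 10, 4 with array weights or pairs 1 to 6, and 1 to 2 leaving out replicates. With array weights Ooep was called for pair means too, at 0.56 (limma adjusted p = 0.00873), and so was Zbed3, at 0.28 (0.0424). For the embryo of origin 3 were called, 1 with centring or quantile normalization, and 0 to 3 leaving out replicates. There Khdc3 had F = 3.89 after quantile normalization (limma adjusted p = 0.0654), and from 3.40 to 8.86 leaving out pairs.

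Signs turned in differences that were not called, apart from Tle6 in pair means. In GM501 minus SAGE they turned for Nlrp5 at 0.24 in pairs 7 to 10, and in pairs 1 to 6 for Khdc3 at -0.005, Ooep at -0.037 and Zbed3 at 0.032. Leaving out replicates, these differences ran from -0.032 to 0.17 for Khdc3, from -0.28 to 0.0078 for Nlrp5, from -0.033 to 0.14 for Ooep, from -0.0067 to 0.056 for Tle6 and from -0.091 to 0.041 for Zbed3. In GM501 twins against controls Nlrp5 was -0.13 and Zbed3 -0.068 with centring, Nlrp5 -0.058 after quantile normalization, and Ooep -0.23 and Zbed3 -0.17 in pairs 7 to 10. In SAGE twins Tle6 was -0.024 and Zbed3 -0.041 with centring, and Nlrp5 was -0.17, Ooep -0.40 and Zbed3 -0.041 in pairs 7 to 10. For pair means Nlrp5 was -0.055, Tle6 -0.0005 and Zbed3 -0.0545 with centring, and Nlrp5 -0.0525, Ooep -0.32 and Zbed3 -0.11 in pairs 7 to 10. With centred arrays r with Khdc3 became 0.17 for Nlrp5, 0.65 for Tle6 and 0.41 for Padi6 in GM501 twins, and 0.13 for Padi6 in SAGE twins. Without the 2 blastocysts farthest from the median it was -0.027 for Tle6 in SAGE twins, 0.62 for Tle6 in controls and 0.0089 for Padi6 in GM501 twins. RMA signals give no depth.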
